A study of Mus musculus with 6 samples.

Results

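The chemokine receptors of lymph node T helper cells described here are Ccr2, Ccr4, Ccr6, Ccr7, Ccr8, Ccr9, Cxcr3, Cxcr4 and Cxcr5. They were taken by gene symbol from the platform annotation, and each of the 9 had 1 probe set named for it alone, out of 19938 genes with such a probe set. The study asked whether the ChrY that a father carries changes the T cells of daughters, who do not inherit it. RNA came from naive B6 (C57BL/6J) females and from naive females of B6-ChrYSJL, a consomic strain that has the ChrY of SJL on the B6 genome. All females were 8 weeks old and came from mixed sex litters. CD4+TCRβ+ cells were sorted by flow cytometry from axillary, brachial and inguinal lymph nodes, and 3 pools of each strain, with 5 mice in each pool, were put on 1 Affymetrix Mouse Gene 1.0 ST array each. The design is limited by pooling, which hides the spread between mice, and by the sort, which did not separate naive, memory and regulatory cells.

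Chemokine receptors are G protein-coupled receptors that let a cell move along gradients of small secreted chemokines, through Gi proteins, lipid kinases, Rac and Rap GTPases and integrins. Resting naive T helper cells use Ccr7 and Cxcr4 to enter lymph nodes and move within them. Cells that have met antigen, and many regulatory T cells, gain receptors such as Cxcr3, Ccr2, Ccr4, Ccr6 and Ccr8 that direct them to skin, mucosa and inflamed tissue.

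The deposited values are log2 signals made with RMA, a method that corrects background, equalizes the arrays' distributions and summarizes the probes of each set. Correlations between arrays ran from 0.991 to 0.993. Markers of the labelled cell type were bright. All 8 measured T helper markers lay above background, as did 61.5% of all tested probe sets. The mean level of the 8 was 11.28 to 11.29 in the B6 pools and 11.25 to 11.27 in the B6-ChrYSJL pools. Both CD8 T cell markers also lay above background, so this alone does not single out helper cells. Background was set at 5.98, the 95th percentile of 1205 probe sets for olfactory and vomeronasal receptors. Differences are B6-ChrYSJL minus B6 on the log2 scale, and every adjusted p is limma's, with the Benjamini-Hochberg adjustment over 23410 probe sets. With 3 pools against 3 an exact permutation test cannot give a p below 0.1, so none is given for single receptors.

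In daughters of B6-ChrYSJL fathers the 5 receptors of effector, memory and tissue-homing cells (Ccr2, Ccr4, Ccr6, Ccr8 and Cxcr3) all gave less signal than in B6, with differences from -0.83 to -0.49 and a median of -0.53. For each of the 5, every B6-ChrYSJL pool lay below every B6 pool. The 4 homeostatic and lymphoid receptors (Ccr7, Cxcr4, Cxcr5 and Ccr9) overlapped between strains, with differences from -0.29 to 0.20 and a median of 0.01. No receptor passed an adjusted p of 0.05. Among all probe sets 0.0128% were lower and 0.00427% higher at that threshold. The 5 effector receptors were lower at an unadjusted p under 0.05 and none of the 9 was higher, where 5.92% of all probe sets were lower and 4.69% higher (7.16% and 3.99% of the 14394 above background). Separation of the groups with B6-ChrYSJL below was seen in 5 of 9 receptors and in 9.42% of all probe sets (12.2% of those above background), and with B6-ChrYSJL above in 0 of 9 and in 7.68% (7.95%). Over all 9 receptors the median difference was -0.49, against a median of -0.0036 over all probe sets. Since the RNA came from mixed cells, fewer cells that carry a receptor and less RNA in each such cell cannot be told apart.

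**Figure D1:**
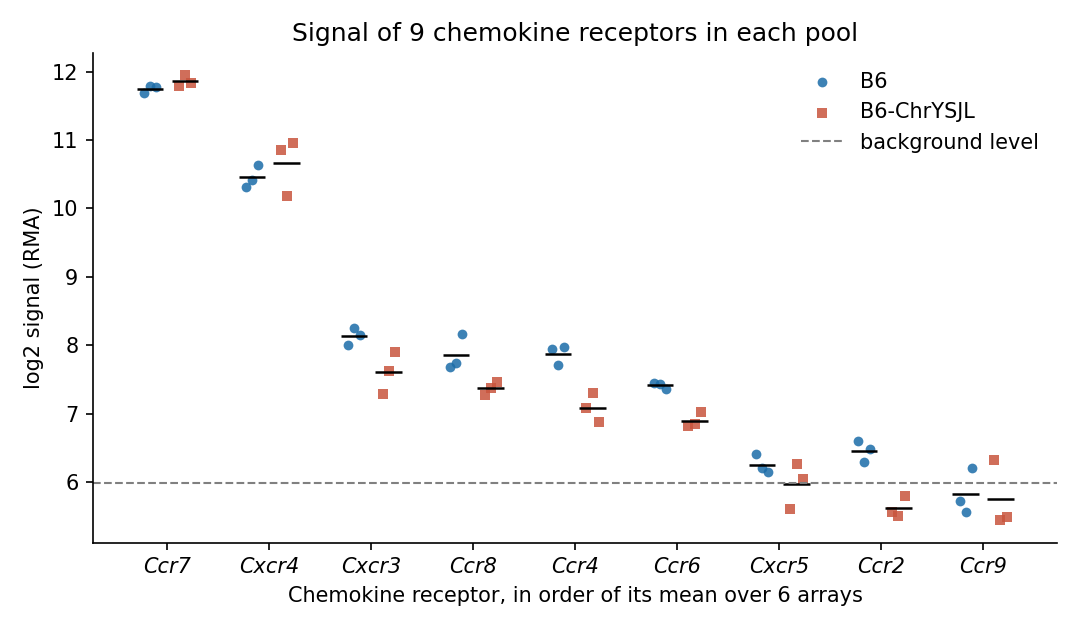
Log2 RMA signal (vertical axis) of the 9 receptors in each of the 6 pools. Circles are B6, squares are B6-ChrYSJL, horizontal bars are means of 3 pools, and the dashed line is the background level of 5.98. Squares lie below all circles for Cxcr3, Ccr8, Ccr4, Ccr6 and Ccr2, and the groups overlap for the other receptors.

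Ccr2, the receptor for Ccl2 that is best known from monocytes and is also found on memory T cells, had the lowest measured difference of the 9, though its signal in B6-ChrYSJL was within background. The B6 pools gave log2 signals of 6.60, 6.29 and 6.48, and the B6-ChrYSJL pools gave 5.57, 5.51 and 5.80. All 3 B6 pools lay above background and all 3 B6-ChrYSJL pools lay below it, with a gap of 0.49 between the groups. The means were 6.46 ± 0.16 (SD, n = 3) and 5.62 ± 0.15, a difference of -0.83 (SE 0.11, 95% interval -1.07 to -0.59, adjusted p = 0.0707). Measured signal was 1.78-fold higher in B6. With the B6-ChrYSJL pools placed at the background level, B6 was at least 1.39-fold higher, a bound below the 1.41-fold of Ccr8, so the place of Ccr2 among the 5 effector receptors is not settled. Ccr2 ranked 11 of 23410 by p and 13 by lowest measured difference. It was the only one of the 9 at an adjusted p under 0.1, a threshold reached in the lower direction by 0.0598% of all probe sets. That call was lost on the same 6 arrays with the unmoderated model (limma adjusted p = 0.331), with all deposited probe sets (0.323) and with the replicate block (0.103), and in every fit that left out 1 array.

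Ccr4, the receptor for Ccl17 and Ccl22 on skin-homing, type 2 and regulatory T cells, differed by nearly as much at a brighter signal. It gave 7.95, 7.72 and 7.98 in the B6 pools and 7.09, 7.31 and 6.87 in the B6-ChrYSJL pools, all above background. The lowest B6 pool stood 0.41 above the highest B6-ChrYSJL pool. The means of 7.88 ± 0.14 and 7.09 ± 0.22 (SD, n = 3) differed by -0.79 (SE 0.12, 95% interval -1.06 to -0.52, adjusted p = 0.123), a 1.73-fold higher signal in B6.

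Ccr6, the receptor for Ccl20 that marks T helper cells making interleukin-17, had the smallest SE among these 5 and varied least between the B6 pools. The B6 pools gave 7.45, 7.44 and 7.36, and the B6-ChrYSJL pools gave 6.82, 6.85 and 7.02. The groups stood 0.34 apart. The means of 7.41 ± 0.05 and 6.89 ± 0.11 (SD, n = 3) differed by -0.52 (SE 0.08, 95% interval -0.69 to -0.35, adjusted p = 0.104), a 1.43-fold higher signal in B6. By p it ranked 23 of 23410, next to Ccr4 at 26, although its difference was smaller.

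Ccr8, the receptor for Ccl1 on regulatory and type 2 T cells, gave 7.69, 7.74 and 8.16 in the B6 pools and 7.27, 7.37 and 7.47 in the B6-ChrYSJL pools. The third B6 pool was the highest, and the groups did not overlap. The means of 7.86 ± 0.26 and 7.37 ± 0.10 (SD, n = 3) differed by -0.49 (SE 0.12, 95% interval -0.78 to -0.21, adjusted p = 0.319). Cxcr3, the receptor for Cxcl9, Cxcl10 and Cxcl11 on type 1 effector cells, gave 8.00, 8.25 and 8.14 in the B6 pools and 7.28, 7.63 and 7.91 in the B6-ChrYSJL pools. Its B6-ChrYSJL pools were spread more widely and the third came within 0.09 of the lowest B6 pool. The means of 8.13 ± 0.13 and 7.61 ± 0.31 (SD, n = 3) differed by -0.53 (SE 0.15, 95% interval -0.86 to -0.19, adjusted p = 0.338). Without the third B6 pool the difference of Ccr8 was -0.34, and without the first B6-ChrYSJL pool that of Cxcr3 was -0.36, both still lower at an unadjusted p under 0.05.

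The promoters of these 5 receptors are shown because all 5 genes gave lower signal in the same pools. Each sequence is the 250 bases before the start of the gene, from RefSeq on GRCm38.p6, printed 5′ to 3′ on the strand of the gene. Capitals mark, on either strand, the short letters that GATA, RUNX, ROR, T-box and AP-1 factors are known to bind, which are spelled out after the sequences. Of the 2 promoters listed for Ccr6, the one holding the ROR letters is printed.
Ccr2 (chr9:124101933-124102182, plus strand): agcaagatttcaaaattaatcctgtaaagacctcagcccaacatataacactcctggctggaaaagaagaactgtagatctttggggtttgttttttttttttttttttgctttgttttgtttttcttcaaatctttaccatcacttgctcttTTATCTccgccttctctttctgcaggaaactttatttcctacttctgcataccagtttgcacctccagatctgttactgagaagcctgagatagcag
Ccr4 (chr9:114496545-114496794, minus strand): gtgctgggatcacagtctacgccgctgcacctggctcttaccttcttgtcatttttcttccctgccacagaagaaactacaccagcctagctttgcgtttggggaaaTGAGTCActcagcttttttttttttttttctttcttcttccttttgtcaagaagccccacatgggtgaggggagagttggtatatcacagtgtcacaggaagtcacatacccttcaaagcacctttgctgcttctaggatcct
Ccr6 (chr17:8235793-8236042, plus strand): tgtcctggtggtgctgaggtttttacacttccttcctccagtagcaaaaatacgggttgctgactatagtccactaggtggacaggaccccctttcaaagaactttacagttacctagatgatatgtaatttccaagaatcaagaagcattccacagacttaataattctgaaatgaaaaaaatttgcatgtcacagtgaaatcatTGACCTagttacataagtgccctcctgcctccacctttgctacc
Ccr8 (chr9:120091883-120092132, plus strand): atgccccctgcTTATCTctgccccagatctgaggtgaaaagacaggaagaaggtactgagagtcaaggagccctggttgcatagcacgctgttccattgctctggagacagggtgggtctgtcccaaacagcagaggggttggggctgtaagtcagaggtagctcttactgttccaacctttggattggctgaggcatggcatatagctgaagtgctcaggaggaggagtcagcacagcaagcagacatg
Cxcr3 (chrX:101734148-101734397, minus strand): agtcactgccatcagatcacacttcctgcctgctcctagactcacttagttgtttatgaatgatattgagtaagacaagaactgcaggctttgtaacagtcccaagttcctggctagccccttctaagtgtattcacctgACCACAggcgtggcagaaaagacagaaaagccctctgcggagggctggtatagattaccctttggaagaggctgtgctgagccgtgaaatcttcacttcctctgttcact

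No motif of the 8 searched was found in all 5 promoters printed above. Of the 32851 promoters in the table, 8 belonged to 7 of the receptors, and Ccr7 and Cxcr5 had none there. AGATAA, the letters bound by GATA factors, was present in Ccr2 and Ccr8 and in the other Ccr6 promoter (3 of the 8), against 9.99% of all promoters of this length. TGTGGT, bound by RUNX factors, was present in Cxcr3 (1 of 8, against 14% of all), AGGTCA, bound by ROR factors, in Ccr6 (1 of 8, against 14%), and TGANTCA, bound by AP-1, in Ccr4 (1 of 8, against 6.75%). Among the other receptors, GGTGTG, bound by T-box factors, was found in Ccr9 (1 of 8, against 16.3%), and TATAAA, the TATA box, in Cxcr4 (1 of 8, against 12.4%). The E-box letters CANNTG were in 5 of 8 promoters and in 66.2% of all, and the FOXO letters GTAAACA were in none of the 8 and in 3.17% of all. Both strands were searched, no matches of different motifs overlapped in these promoters, and a match describes letters in this window only.

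**Figure D2:**
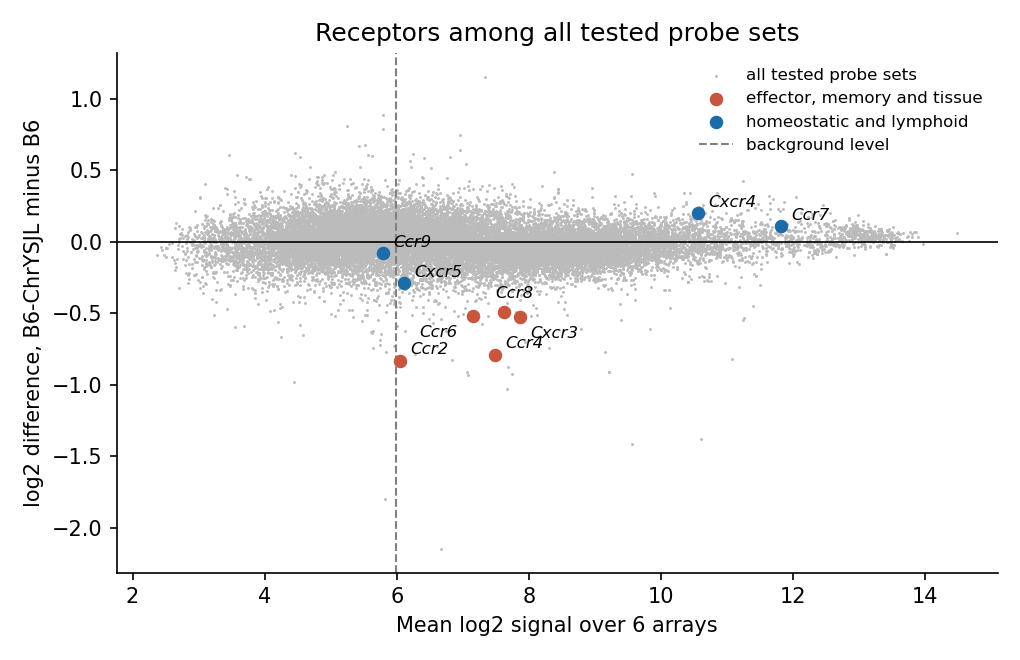
Log2 difference, B6-ChrYSJL minus B6 (vertical axis), against the mean log2 signal over 6 arrays (horizontal axis) for the 23410 tested probe sets (grey). The 5 effector, memory and tissue receptors (red) lie between -0.83 and -0.49, and the 4 homeostatic and lymphoid receptors (blue) between -0.29 and 0.20. The dashed line is the background level.

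Ccr7, the receptor for Ccl19 and Ccl21 that brings naive T cells into the T cell zone, was the brightest of the 9. It gave 11.69, 11.80 and 11.77 in the B6 pools and 11.79, 11.95 and 11.84 in the B6-ChrYSJL pools. These were brighter than 97.7% to 98.0% of all deposited probe sets on each array. The groups overlapped by a small margin, and no longer did without the second B6 pool or without the first B6-ChrYSJL pool. The means of 11.75 ± 0.06 and 11.86 ± 0.08 (SD, n = 3) differed by 0.11 (SE 0.07, 95% interval -0.05 to 0.27, adjusted p = 0.619).

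Cxcr4, the receptor for Cxcl12, gave 10.32, 10.42 and 10.64 in the B6 pools and 10.86, 10.18 and 10.95 in the B6-ChrYSJL pools. The second B6-ChrYSJL pool was the lowest of all 6 and the other two were the highest. The means of 10.46 ± 0.16 and 10.66 ± 0.42 (SD, n = 3) differed by 0.20 (SE 0.19, 95% interval -0.24 to 0.64, adjusted p = 0.740). Without that pool the difference was 0.44, the groups no longer overlapped and Cxcr4 was higher at an unadjusted p under 0.05. Without the third B6-ChrYSJL pool it was 0.06.

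Cxcr5, the receptor for Cxcl13 that takes helper cells into B cell follicles, lay near background. It gave 6.42, 6.20 and 6.15 in the B6 pools and 5.60, 6.26 and 6.04 in the B6-ChrYSJL pools, with 3 B6 pools and 2 B6-ChrYSJL pools above background. The means of 6.26 ± 0.14 and 5.97 ± 0.34 (SD, n = 3) differed by -0.29 (SE 0.16, 95% interval -0.65 to 0.07, adjusted p = 0.551). Without the second B6-ChrYSJL pool the difference was -0.44 and Cxcr5 joined the receptors that were lower at an unadjusted p under 0.05, making 6. Without the first B6-ChrYSJL pool it was -0.11. Ccr9, the receptor for Ccl25 that directs cells to the small intestine, gave 5.72, 5.56 and 6.20 in the B6 pools and 6.32, 5.44 and 5.49 in the B6-ChrYSJL pools. A single pool of each strain was above background, and the means of 5.83 ± 0.33 and 5.75 ± 0.50 (SD, n = 3) differed by -0.08 (SE 0.25, 95% interval -0.64 to 0.49, adjusted p = 0.931). The intervals of Cxcr4, Cxcr5 and Ccr9 include differences of the size seen for Ccr8, in one direction or the other.

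Ordered by mean signal over the 6 arrays, the receptors ran from Ccr7 (11.81) and Cxcr4 (10.56) through Cxcr3 (7.87), Ccr8 (7.62), Ccr4 (7.49) and Ccr6 (7.15) to Cxcr5 (6.11), Ccr2 (6.04) and Ccr9 (5.79). These are signals of different probe sets, which are not calibrated against each other or per length, so the order is one of brightness and not of transcript number. Only the steps from Ccr7 to Cxcr4 (1.24), from Cxcr4 to Cxcr3 (2.70) and from Ccr6 to Cxcr5 (1.04) were larger than the SD of either receptor over the arrays, and on all 6 arrays the brighter receptor of each such pair was brighter. The neighbours Cxcr3 and Ccr8, Ccr8 and Ccr4, Ccr4 and Ccr6, Cxcr5 and Ccr2, and Ccr2 and Ccr9 stood within that spread, which includes the strain difference. In each of these pairs the brighter receptor was brighter on 5 of 6 arrays, except Cxcr5 and Ccr2 (3 of 6). The order differed by strain, with Ccr4 at place 4 in B6 and 5 in B6-ChrYSJL, and Ccr2 at 7 and 9.

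Averaged after centring each receptor on its own mean, the 5 effector receptors stood at 0.30, 0.25 and 0.39 in the B6 pools and at -0.43, -0.30 and -0.22 in the B6-ChrYSJL pools. The 4 homeostatic receptors stood at -0.03, -0.07 and 0.12 in B6 and at 0.08, -0.11 and 0.01 in B6-ChrYSJL. The first set separated the strains, which follows from the separation of each of its 5 receptors, and the second did not. This division into sets was chosen with earlier results of these data known, so the contrast adds no support.

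Markers of other cells were measured beside the receptors, and their counts at an unadjusted p under 0.05 stand against 5.92% lower and 4.69% higher over all probe sets. Both CD8 T cell markers were lower in B6-ChrYSJL at an unadjusted p under 0.05, and their mean level was 7.42 to 7.62 in the B6 pools and 7.03 to 7.18 in the B6-ChrYSJL pools. Cd8a, a chain of the co-receptor of cytotoxic T cells, differed by -0.54 (SE 0.12) and Cd8b1, its partner, by -0.28 (SE 0.09). Of 6 regulatory T cell markers, all above background, 4 were lower at an unadjusted p under 0.05 and none was higher, with a mean of centred log2 values of 0.05 to 0.19 in the B6 pools and of -0.15 to -0.06 in the B6-ChrYSJL pools. Nrp1, a surface marker of regulatory cells from the thymus, differed by -0.49 (SE 0.10), Ctla4, an inhibitory receptor, by -0.30 (SE 0.07), Foxp3, the regulatory lineage factor, by -0.21 (SE 0.06) and Tnfrsf18, a costimulatory receptor, by -0.20 (SE 0.06). Il2ra, a chain of the interleukin-2 receptor, differed by -0.02. These levels were lower in B6-ChrYSJL, as were the 5 effector receptors, and their part in the receptor result was not tested.

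Ccr2 is abundant in monocytes, and the part of such cells in its signal was not tested. The mean level of the myeloid and dendritic cell markers was 5.78 to 5.90 in B6 and 5.83 to 5.85 in B6-ChrYSJL. Of the 13 measured, 5 lay above background, none was lower and 1 was higher at an unadjusted p under 0.05. Those above background were Lyz2 (7.18), Cd68 (7.15), Batf3 (6.35), Itgam (6.18) and Siglech (6.13), and the other 8 lay below it, among them Csf1r, Adgre1, Cd14, Fcgr1 and Mpeg1. Lyz2, the lysozyme of myeloid cells, differed by -0.24 (SE 0.26). The groups separated for Itgam (lower) and for Mpeg1 and Itgax (higher). Natural killer cell markers (7 measured, 3 above background) had a mean level of 6.05 to 6.09 in B6 and 5.98 to 6.04 in B6-ChrYSJL, with none lower or higher. None of the 6 neutrophil markers lay above background. B cell markers (14 measured, 9 above background) ran from 6.20 to 6.28 in B6 and more widely, from 6.15 to 6.66, in B6-ChrYSJL, with 3 higher at an unadjusted p under 0.05. Markers of lymph node stroma (9 measured, 5 above background) ran from 6.47 to 6.55 and from 6.58 to 6.66, also with 3 higher. Cxcr5 is bright in B cells, and the part of B cells in its signal was not tested. The 1 red cell marker measured, Alas2, differed by -0.08.

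**Figure D3:**
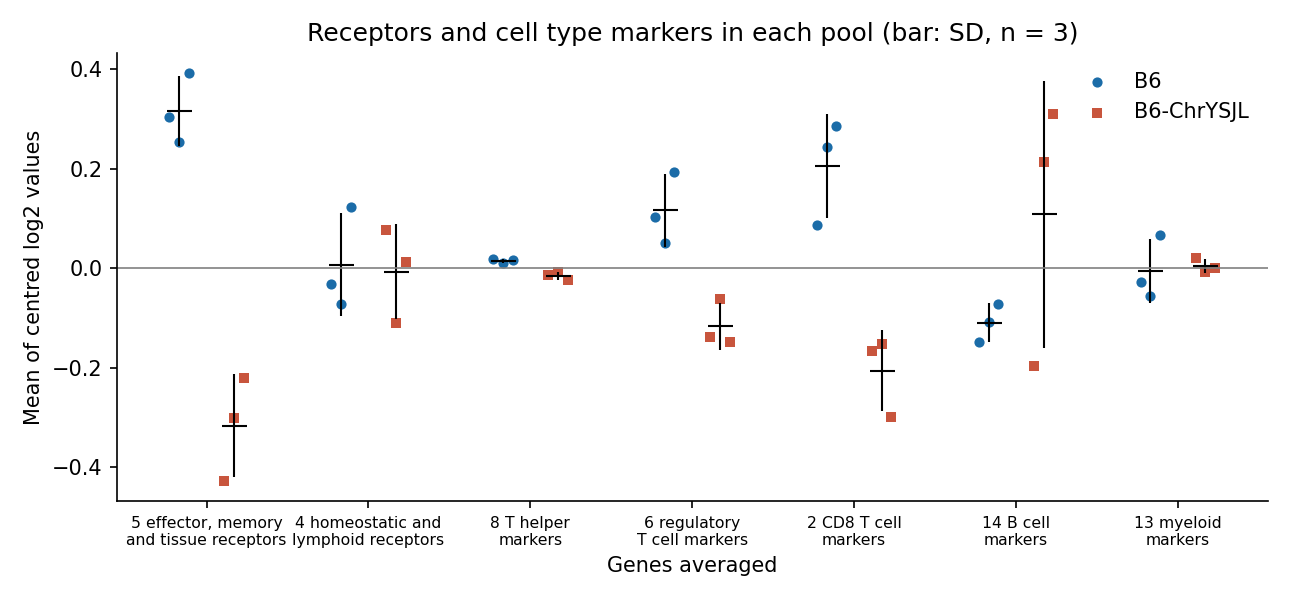
Mean of centred log2 values (vertical axis) of the effector receptors, the homeostatic receptors and 5 lists of cell type markers in each pool. Circles are B6, squares are B6-ChrYSJL, and bars are the mean and SD of 3 pools. The effector receptors, the T helper markers, the regulatory T cell markers and the CD8 T cell markers separate the strains. Of these the T helper markers do so by far the least, and the other lists drawn overlap. Lists not drawn that also separate the strains are natural killer cell markers, stromal markers, other chemokine receptors, signalling genes and transcription factors.

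Of the remaining chemokine receptors few gave a signal above background. Of 15 listed, 14 were measured and 5 lay above background, and at an unadjusted p under 0.05 there were 5 lower and 2 higher, against 5.92% and 4.69% of all probe sets, with a median difference of -0.05. Of those called, 1 lower and 1 higher lay above background. No gene of this or the following lists passed an adjusted p of 0.05. Of those above background, Ccr10, a receptor of skin-homing cells, averaged 7.21 in B6 and 6.88 in B6-ChrYSJL (difference -0.33, SE 0.12), and Ackr2, a scavenging receptor that removes inflammatory chemokines, differed the other way (0.31, SE 0.09). Cxcr6, the receptor for Cxcl16 on effector and resident T cells, gave 8.09, 8.01 and 7.92 in B6 and 7.42, 7.59 and 8.09 in B6-ChrYSJL. The third B6-ChrYSJL pool was as high as the B6 pools, and its difference of -0.31 (SE 0.16) did not reach that threshold. Cx3cr1, the receptor for Cx3cl1, differed by 0.01. The dim receptors Ccrl2 (-0.41), Xcr1 (-0.29) and Cxcr2 (0.34) had means below background.

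**Figure D4:**
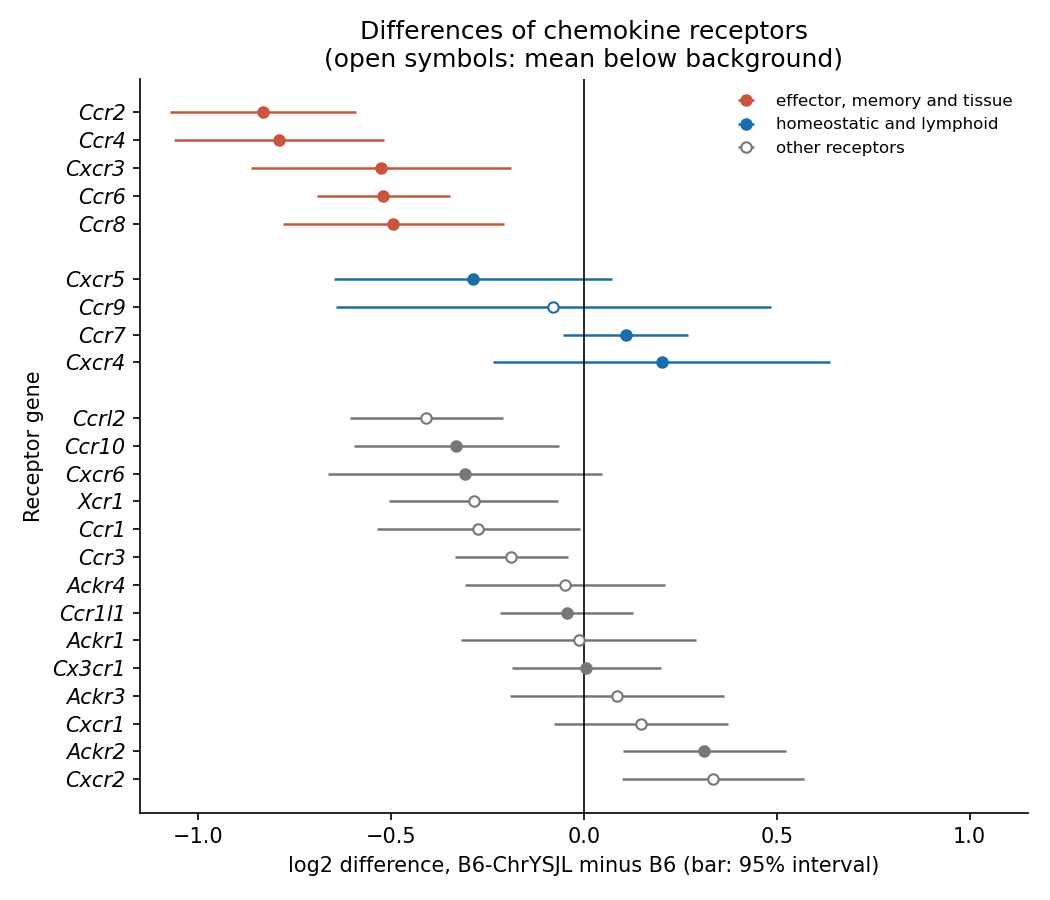
Log2 difference, B6-ChrYSJL minus B6 (horizontal axis), with its 95% interval for 23 receptors. Red marks the effector, memory and tissue receptors, blue the homeostatic and lymphoid receptors, grey the 14 other receptors, and open symbols a mean below background. The intervals of all 5 red receptors lie below 0 and those of the 4 blue receptors span it.

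Several receptor genes lie next to each other on mouse chromosome 9. In the order of the RefSeq table, the stretch of 8 genes from Ccr9 through Fyco1, Cxcr6, Xcr1, Ccr1, Ccr1l1 and Ccr3 to Ccr2 holds 7 receptor genes, all of them measured. Ccr1, Ccr3, Ccr1l1 and Fyco1 were named for their place after their values had been seen. All 7 differences were negative (that of Ccr9 not in every fit with 1 array left out), and 4 of them (Xcr1 -0.29, Ccr1 -0.27, Ccr3 -0.19 and Ccr2 -0.83) reached an unadjusted p under 0.05. Over all probe sets 51.1% of differences were negative and 5.92% were lower at that threshold. Among these 4 only Ccr2 had a mean above background (6.04), with 3 B6 pools and 0 B6-ChrYSJL pools above it. Ccr1l1 differed by -0.04, and Fyco1, which encodes an adaptor for vesicle transport and is no receptor, by -0.21 (SE 0.08). Ccr4 and Ccr8 lie elsewhere on chromosome 9, while Ccr6 lies on chromosome 17 and Cxcr3 on chromosome X.

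The ligands of the 9 receptors were mostly dim in these sorted T cells. Of 18 listed, 15 were measured and 5 lay above background, namely Ccl25, Ccl7, Ccl19, Ccl1 and Cxcl10. None of these 5 reached an unadjusted p under 0.05, and the median difference over the 15 was 0.03. Ccl8 and Ccl12, ligands of Ccr2, differed by -0.26 and -0.32, and Cxcl9 and Cxcl11, ligands of Cxcr3, both by 0.24, all with means below background. Among 19 other chemokines (10 above background), 1 was lower and 1 higher, against 5.92% and 4.69% of all probe sets. Ccl4, a chemokine made by activated T cells, gave 6.88, 6.62 and 6.98 in B6 and 6.05, 6.38 and 6.35 in B6-ChrYSJL. These groups did not overlap, and the means differed by -0.57 (SE 0.12, adjusted p = 0.254). Ccl5, made by memory T cells, averaged 8.79 ± 0.04 in B6 and 8.76 ± 0.66 in B6-ChrYSJL (SD, n = 3).

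Genes through which the receptors signal had differences from -0.34 to 0.22. Of 39 listed, 37 were measured, 35 lay above background, and 4 were lower and 3 higher at an unadjusted p under 0.05, with a median difference of -0.03. Probe sets above background were lower in 7.16% and higher in 3.99% of cases. Of the 37, the groups did not overlap for 9 in the lower and 3 in the higher direction. The shares of probe sets above background were 12.2% and 7.95%. Gnai2, the main Gi subunit of lymphocytes, differed by -0.05, and Rac2, a GTPase of cell movement, by -0.06. The lower genes included Plcb3 (-0.34, SE 0.09), a phospholipase, Tln1 (-0.23, SE 0.07), which activates integrins, and Pik3cd (-0.19, SE 0.06), the delta catalytic subunit of PI3 kinase. Cdc42, a GTPase of cell polarity, was among the higher ones (0.20, SE 0.07).

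Of 13 other homing molecules measured, 12 lay above background, and 1 was lower and 2 were higher at an unadjusted p under 0.05, against 7.16% and 3.99% of probe sets above background. Their median difference was -0.04. Itgb1, the integrin beta-1 chain that is raised on memory cells, gave 9.42, 9.38 and 9.47 in B6 and 9.11, 9.06 and 9.07 in B6-ChrYSJL. The groups were well apart, and the means differed by -0.34 (SE 0.06, adjusted p = 0.192). P2ry10, a lipid receptor, and Gpr183, an oxysterol receptor that positions cells in lymphoid tissue, differed by 0.39 (SE 0.12) and 0.34 (SE 0.11). S1pr1, through which T cells leave the lymph node, differed by 0.06.

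Of 12 measured transcription factors of helper subsets and homing, all above background, 3 were lower and none was higher at an unadjusted p under 0.05, against 7.16% and 3.99% of probe sets above background. Their median difference was -0.14. They were Foxp3 (-0.21), which is also counted among the regulatory markers, Prdm1 (-0.30, SE 0.10), a factor of effector cells, and Maf (-0.51, SE 0.19), a factor of several helper subsets. The factors that specify helper subsets gave -0.03 for Gata3 (type 2) and 0.02 for Tbx21 (type 1). Lef1, a factor of naive cells, differed by 0.07 and Klf2, which drives S1pr1, by -0.14.

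Among 13477 probe sets with 1 symbol and a mean above background, the patterns most like each effector receptor were found by the smallest root mean square difference between centred log2 values over the 6 arrays. Closest to Ccr2 were Snord14e (0.103), Entpd4 (0.125) and Mki67 (0.126). For Ccr4 they were G530011O06Rik (0.104), Penk (0.122) and Snord33 (0.125), and for Ccr6 they were Set (0.0687), Maged1 (0.084) and Mki67 (0.0893). Mki67 encodes a protein of dividing cells. It averaged 6.44 in B6 and 5.82 in B6-ChrYSJL, the second value being below the background of 5.98. The closest to Ccr8 were Gadd45b (0.0667), Gucy1a1 (0.0886) and Entpd1 (0.0979), and to Cxcr3 they were Set (0.121), Gm10364 (0.128) and 6330403K07Rik (0.135). These distances describe 6 arrays and carry no test. Like Mki67, Set (5.71), Maged1 (5.82) and Gm10364 (5.87) averaged below background in B6-ChrYSJL. These genes entered the search through their B6 signal.

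**Figure D5:**
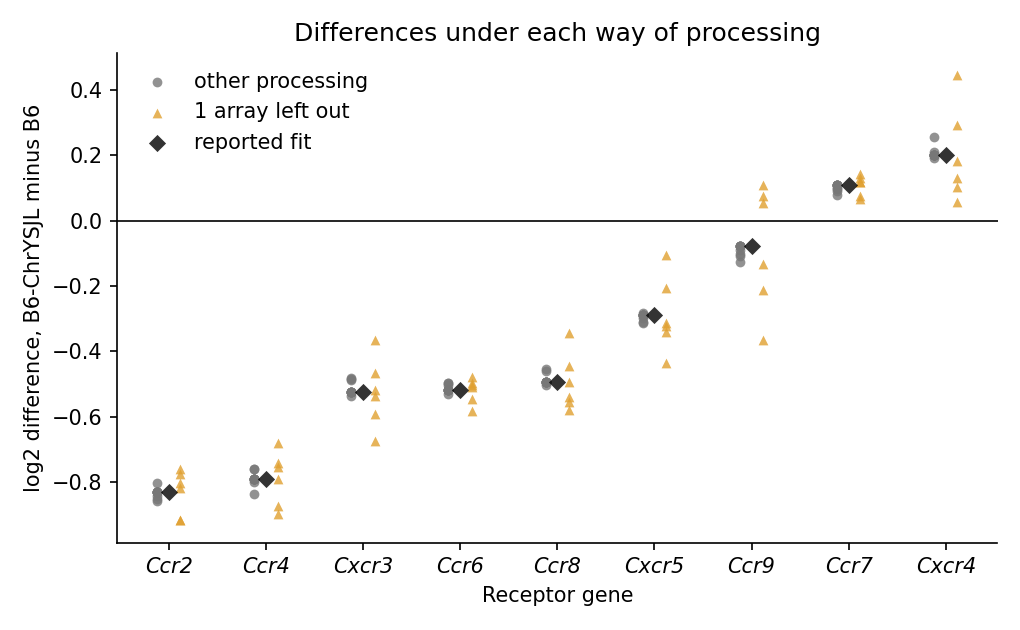
Log2 difference, B6-ChrYSJL minus B6 (vertical axis), of each receptor in the reported fit (diamond), under other processing (circles) and with 1 array left out (triangles). Circles level with the diamond include alternatives that change only the error. The 5 effector receptors stay below 0, with Cxcr3 reaching -0.36 and Ccr8 -0.34 when 1 array is left out, while Ccr9 lies on both sides of 0.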

How the data were processed

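RNA of CD4+TCRβ+ cells was amplified from 50 ng and measured on 6 arrays. The authors processed the arrays with RMA in Partek and deposited 1 log2 value per probe set and array; GCOS and mm9 are further names in the submitters' processing notes. These values were used without further normalization. Of 35556 probe sets, the 23410 with a gene symbol in the platform annotation were tested, and 1621 of these with several symbols were not named. Groups were compared by a moderated linear model without a block (limma 3.58.1, R 4.3.3), after the fit was tested on simulated data. The number of arrays limits the precision (median SE 0.08). The labels give no batch.

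The receptors, their division into effector and homeostatic sets, the gene lists and the naming rule were chosen with earlier results of these data known. Named were all 9 receptors, per list the 4 members with the smallest p and the 3 brightest, ligands by level, and the 3 most alike genes per receptor at an unadjusted p under 0.05. Other markers, list members and neighbouring genes were named after their values were seen. Listed genes without a probe set named for them alone were not analysed here. RefSeq tables (GRCm38.p6) gave symbols, gene order and promoters; their coordinates were not joined to the arrays. Motifs and figures used Python 3.11.15, pandas 2.3.3 and matplotlib 3.10.9. Alternatives were other variance models, array weights, probe set filters, normalizations, averaging over a gene's probe sets, a replicate block, other background percentiles and each array left out.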

Additional observations from a re-analysis of the deposited data

How the results depend on the processing

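The 5 effector receptors kept negative differences under the 10 alternatives that can change a difference, and 87 of the 90 receptor differences under these had the same sign. The other 7 alternatives change only the error or the set tested, and say nothing about direction. The exceptions were Ccr9, at 0.11 without B6 replicate 3, 0.08 without B6-ChrYSJL replicate 2 and 0.05 without B6-ChrYSJL replicate 3, in a range from -0.36 to 0.11 with 1 array left out. The count past an adjusted p of 0.05 was most open to processing. It went from 0 to 3 with an intensity trend in eBayes (Ccr2, Ccr4 and Ccr6, with limma adjusted p of 0.00677, 0.00919 and 0.0252), and to 1 (Ccr2) with only probe sets above background (adjusted p = 0.0383), with arrays centred on their medians (0.0431) or with the mean over a gene's probe sets (0.0404). The count was 0 in all other fits. Ccr2 passed the background filter by its mean over 6 arrays (6.04), with 3 B6 pools and 0 B6-ChrYSJL pools above background. The adjusted p of Ccr2 ran from 0.00677 to 0.331 over all alternatives. At an adjusted p of 0.1, a threshold chosen after seeing the data, the count was 1, and 0 to 3 under the alternatives. The number of probe sets called at 0.05 went from 4 to 55 with the trend. Receptors lower at an unadjusted p under 0.05 numbered 4 with an unmoderated model, where Cxcr3 was lost, 5 in other fits, and 5 to 6 with 1 array left out. Receptors higher at that threshold numbered 1 with the trend (Ccr7), and 0 to 1 with 1 array left out (Cxcr4, without B6-ChrYSJL replicate 2). Receptors without overlap numbered 5 to 6 (lower) and 0 to 1 (higher) with 1 array left out. The higher one was Ccr7 without B6 replicate 2 or B6-ChrYSJL replicate 1, and Cxcr4 without B6-ChrYSJL replicate 2. The median difference of the 9 ran from -0.51 to -0.45, and from -0.54 to -0.34 with 1 array left out. Genes of the pathway lists at an unadjusted p under 0.05 numbered 25, or 15 with the unmoderated model and 14 (without B6-ChrYSJL replicate 2) to 26 with 1 array left out. Receptors above background numbered 6 to 9 as the background percentile was moved between 99 and 90. Deviations of arrays with the same replicate number were not correlated (-0.00010, -0.036 and -0.017), so the numbers were not taken as pairs. With the replicate block 5 receptors were lower at an unadjusted p under 0.05 and 0 passed an adjusted p of 0.05 or 0.1. Signal close to background limits Ccr2, Cxcr5 and Ccr9.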
